A study of Mus musculus with 32 samples.

Results

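The genes described here are 30 genes of sterol and fatty acid synthesis in mouse spinal cord, chosen by symbol from a table of 23420 genes and read across 10 groups of libraries. The sterol branch holds 18 of them. It comprises enzymes of the mevalonate and cholesterol pathway from Hmgcs1 to Dhcr7, the regulators Insig1 and Srebf2, and the sterol carrier Stard4. The fatty acid branch holds the other 12, from the acetyl-CoA enzymes Acly and Acss2 through Acaca and Fasn to the desaturases and elongases, with the regulator Srebf1. All 30 were in the table and all 30 passed the filter on low counts, which 16314 genes passed.

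Cells make cholesterol from acetyl-CoA by way of mevalonate, isoprenoids, squalene and lanosterol, and they make fatty acids from the same acetyl-CoA pool by way of malonyl-CoA. Both branches are transcribed under sterol regulatory element binding proteins. SREBP-2, encoded by Srebf2, acts mainly on sterol genes, and SREBP-1, encoded by Srebf1, mainly on fatty acid genes. When sterols are plentiful, Insig proteins hold the SREBP precursors in the endoplasmic reticulum. In spinal cord the pathway is known best for myelin, since circulating cholesterol hardly crosses the blood-brain barrier and glial cells make their own.

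RNA came from cord tissue of C57BL/6J mice aged 8 to 12 weeks, reaching 2 to 3 mm to each side of the lesion, and 32 libraries were sequenced as paired 150-base reads. The sham groups are of 3 and 35 days, with n = 3 in each. Cords that were injured and given the control treatment were taken at 3 days (n = 3), 14 days (n = 3) and 35 days (n = 4). Cords that were injured and labelled Gsx1 were taken at the same times in the same numbers. Injured cords labelled Nkx6.1 were taken at 3 and 35 days (n = 3 each). Gsx1 and Nkx6.1 are homeodomain transcription factors of the embryonic spinal cord. The labels name no control treatment for the sham cords, so injury and control treatment cannot be told apart in a comparison of injured control with sham cord. The labels call the segments injured or injected, without saying what was injected, how the cord was injured or which sex the mice were. Nor is it said that replicates are separate animals, so the p-values measure the spread between these libraries.

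Total counts, in units of 1000000 reads, ranged from 10.8 to 19.5 per library, with a median of 14.6. Counts of the mouse Gsx1 row ranged from 0 to 10 over all libraries and from 1 to 10 in the libraries labelled Gsx1. The mouse Nkx6-1 level was 3.62 to 6.11 CPM (counts per 1000000 reads of effective library size) in the 3-day libraries labelled Nkx6.1 and 7.00 to 8.98 CPM in their injured controls. Neither row checks the treatment labels, and the groups are called here by their labels. Xist, transcribed from the inactive X chromosome of female cells, was above 100 CPM in 7 libraries, and 2 of these also held the Y-linked gene Ddx3y above 10 CPM. The mixed pair were a 3-day sham (replicate 1) and a 35-day injured control (replicate 4). Of the rest, 2 were 3-day libraries (sham replicate 2, injured control replicate 1) and 3 were 35-day libraries (sham replicate 3, injured control replicate 1, Nkx6.1 replicate 2). No Gsx1 library was high in Xist.

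Per kilobase of exon, Scd2 had the highest level of the 30 genes in sham cord at 35 days, 721 ± 39.1 CPM per kb (SD, n = 3). Scd2 and Scd1 are stearoyl-CoA desaturases, which make monounsaturated fatty acids, and Scd1 followed at 181 ± 12.7 CPM per kb. Hmgcs1, which makes HMG-CoA at the entry of the sterol pathway, stood at 139.6 ± 8.08 CPM per kb, the highest level of the sterol branch. Acly, which cleaves citrate to cytosolic acetyl-CoA, was next at 106 ± 2.70 CPM per kb. Insig1 was at 66.5 ± 4.27 CPM per kb and the delta-5 desaturase Fads1 at 66.5 ± 1.14 CPM per kb, neighbours that did not differ beyond their spread. At the other end lay Stard4 at 6.19 ± 0.63 CPM per kb and Lss, the cyclase that forms lanosterol, at 3.93 ± 0.118 CPM per kb. The lowest count of any of the 30 genes in any library was 97 reads, for Stard4 in injured control replicate 4 at 35 days.

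**Figure D1:**
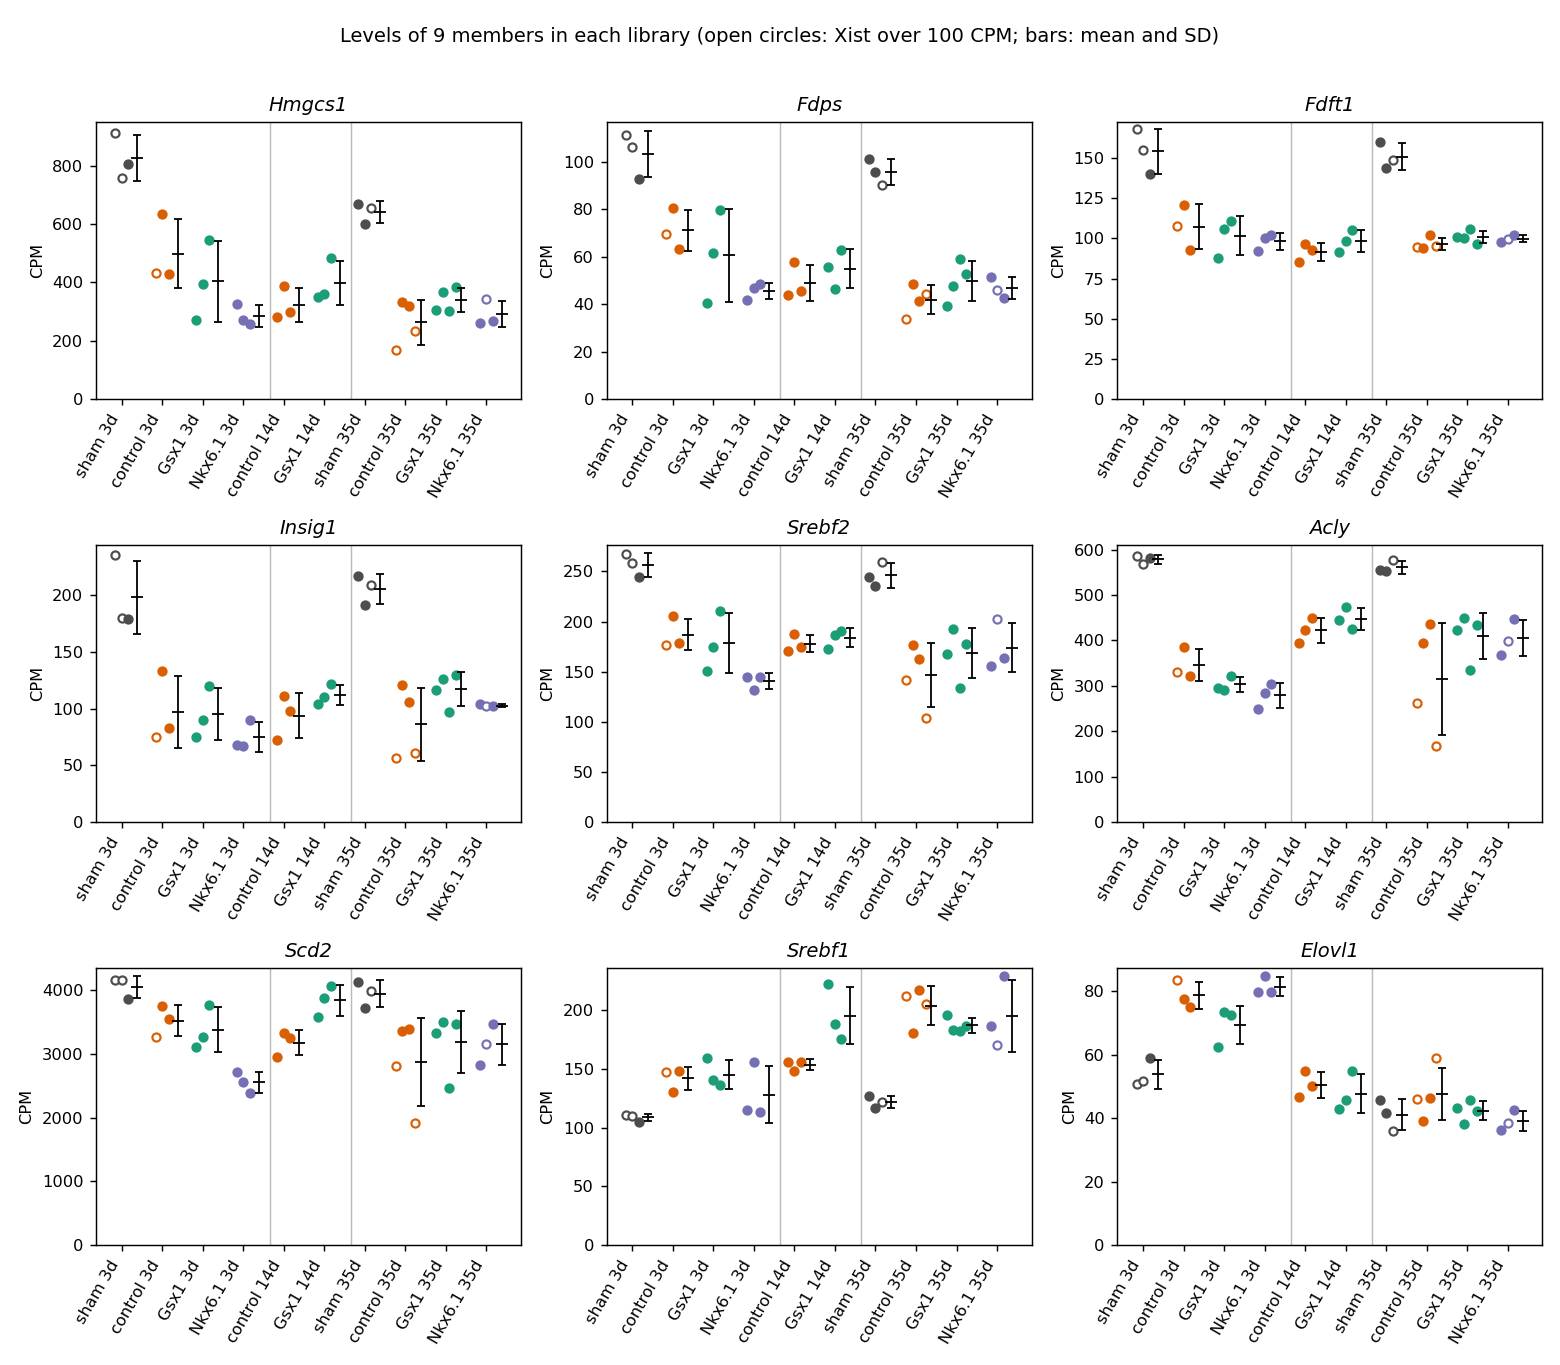
The panels plot the level in CPM of 9 of the genes in each library by group, with 1 point per library, open circles for libraries above 100 CPM of Xist, and bars for the group mean and SD. At 3 and at 35 days the sham libraries lie above the other libraries of the same time in Hmgcs1, Fdps, Fdft1, Insig1 and Acly, while Srebf1 at 35 days is lowest in sham, at 117 to 127 CPM.

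The comparison of injured control with sham cord at 35 days shows the pathway in the late phase after injury. Sterol genes were lower after injury nearly throughout the branch. Of the 18, 16 were lower and none was higher (edgeR quasi-likelihood test, adjusted p under 0.05 over all genes tested). Of the 12 fatty acid genes, 7 were lower and 1, Srebf1, was higher. Over all genes tested, 15.5% were called lower and 21.3% higher. The median log2 fold change was -0.96 for the sterol genes and -0.41 for the fatty acid genes, beside 0.04 for all genes tested. In 24 of the 30 genes every injured control library lay below every sham library, as it did in 18% of all genes tested. In bulk tissue, fewer cells of a type and less RNA per cell cannot be told apart.

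Fdft1, squalene synthase, had the smallest p of the branch. Its level was 160, 144 and 149 CPM in the sham libraries and 94.7, 93.8, 102 and 95.1 CPM in the injured controls. The injured controls lay close together and all below sham, at 0.637 times the sham level (log2 fold change -0.65 ± 0.09 SE, adjusted p = 4.74e-06). Fdps, which makes farnesyl diphosphate, read 101, 95.7 and 90.3 CPM in sham and 33.8, 48.4, 41.2 and 44.2 CPM in injured control cord. Every injured control library was again below every sham library, and the level was 0.438 times that of sham (log2 fold change -1.19 ± 0.17, adjusted p = 7.65e-06).

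Further down the pathway, Cyp51, lanosterol 14-alpha-demethylase, read 197, 200 and 190 CPM in sham and 78.5, 118, 101 and 74.4 CPM in injured control cord. Replicates 1 and 4 were the lowest, and the level was 0.475 times that of sham (log2 fold change -1.07 ± 0.16, adjusted p = 1.44e-05). Nsdhl, an enzyme of C4 demethylation encoded on the X chromosome, read 43.7, 41.6 and 41.9 CPM in sham and 16.1, 21.9, 22.9 and 23.5 CPM in injured control cord. Here replicate 1 alone lay apart from the other injured controls (log2 fold change -1.01 ± 0.15, adjusted p = 2.00e-05).

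Among the upstream enzymes, 2 genes outside the naming rule, picked once their values were known, showed the largest fold changes. Idi1, the isopentenyl diphosphate isomerase, read 44.4, 44.8 and 43.6 CPM in sham and 10.3, 24.6, 22.7 and 10.3 CPM in injured control cord. Hmgcs1 read 670, 599 and 654 CPM in sham and 169, 334, 318 and 234 CPM in injured control cord. In both genes the injured controls lay below all shams, with replicates 1 and 4 lowest. The log2 fold change was -1.38 ± 0.26 for Idi1 (adjusted p = 0.000232) and -1.28 ± 0.21 for Hmgcs1 (adjusted p = 5.53e-05). Sqle, the squalene epoxidase, fell by 1.11 ± 0.18 on the log2 scale (adjusted p = 5.48e-05). The mevalonate enzymes Mvk and Mvd, the cyclase Lss and the late enzymes Hsd17b7, Sc5d and Dhcr7 were lower as well, with log2 fold changes from -0.60 for Mvk to -1.05 for Sc5d. Pmvk (log2 fold change -0.16 ± 0.17, adjusted p = 0.473) and Ebp, the sterol isomerase (-0.24 ± 0.13, adjusted p = 0.154), were the sterol genes not called.

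The regulators of the branch were lower too. Insig1 read 217, 191 and 209 CPM in sham and 56.6, 121, 106 and 60.9 CPM in injured control cord. Its 4 injured control libraries fell into a lower pair, replicates 1 and 4, and a higher pair, both below sham (log2 fold change -1.25 ± 0.22, adjusted p = 0.000124). Srebf2 read 244, 235 and 259 CPM in sham and 142, 177, 163 and 104 CPM in injured control cord, with replicate 4 lowest (log2 fold change -0.75 ± 0.14, adjusted p = 0.000214). The log2 fold change of Stard4, a carrier of sterols between membranes, was -1.16 ± 0.35 (adjusted p = 0.0127). Its injured controls read 8.60, 25.9, 20.1 and 7.21 CPM, and the call was lost without replicate 4 or without sham replicate 3.

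**Figure D2:**
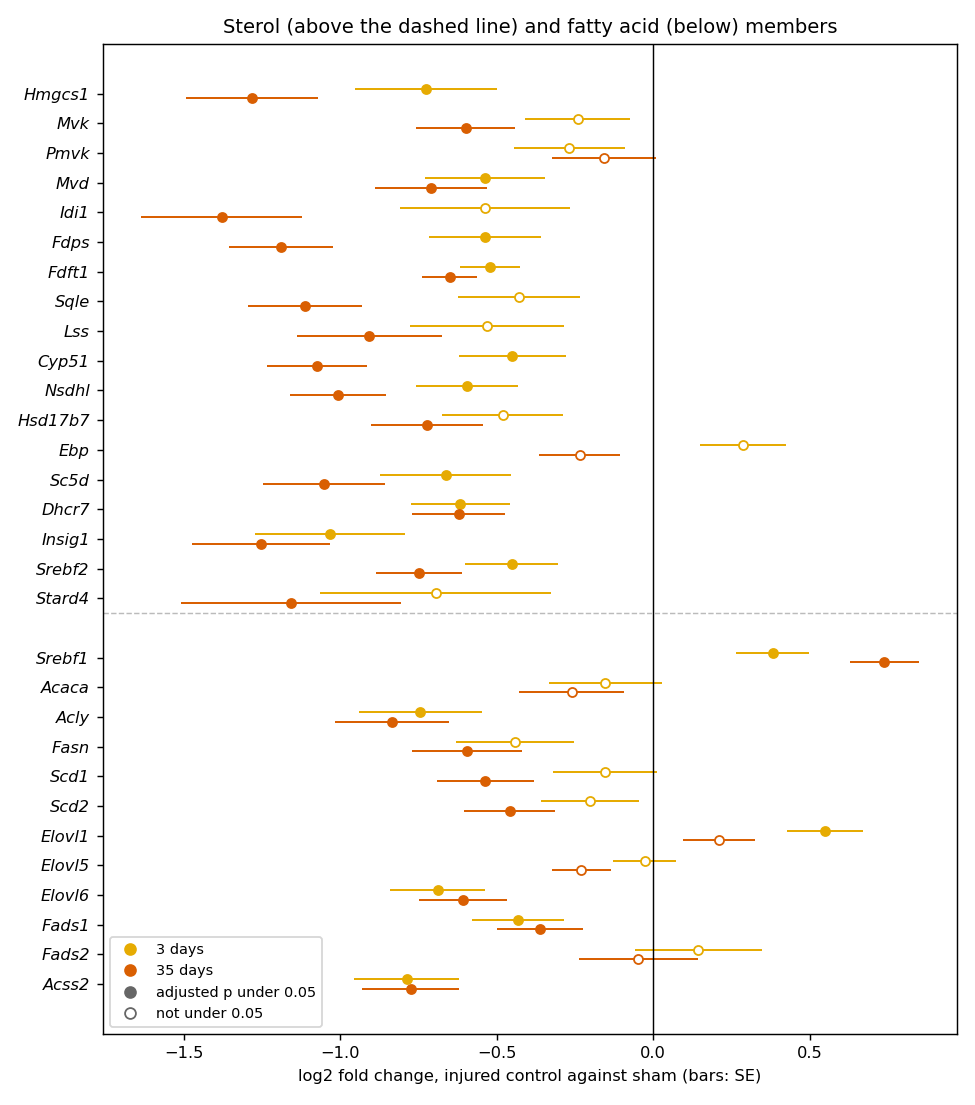
Points give the log2 fold change of injured control against sham cord for the 30 genes at 3 and 35 days, with bars for the SE and filled points for an adjusted p under 0.05. At 35 days the 18 sterol genes lie between -1.38 and -0.16, and Srebf1 lies at 0.74.

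In the fatty acid branch Srebf1 went the other way. It read 127, 117 and 122 CPM in sham and 212, 180, 217 and 205 CPM in injured control cord, so that every injured control library lay above every sham library. The level was 1.67 times that of sham (log2 fold change 0.74 ± 0.11, adjusted p = 1.70e-05). Srebf1 and its homologue Srebf2 thus changed in opposite directions in the same libraries.

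The enzymes that supply acetyl-CoA were lower. Acly read 555, 552 and 578 CPM in sham and 263, 394, 436 and 167 CPM in injured control cord, with replicate 4 far below the others (log2 fold change -0.84 ± 0.18, adjusted p = 0.00114). Acss2, which makes acetyl-CoA from acetate, read 106, 102 and 106 CPM in sham and 47.0, 72.7, 74.7 and 49.6 CPM in injured control cord. Replicates 1 and 4 again formed the lower pair (log2 fold change -0.77 ± 0.16, adjusted p = 0.000513). Fasn, fatty acid synthase, had a log2 fold change of -0.59 ± 0.18 (adjusted p = 0.0114), lost without injured control replicate 4 or sham replicate 3. Acaca, the acetyl-CoA carboxylase that makes malonyl-CoA, was not called (-0.26 ± 0.17, adjusted p = 0.227).

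Among the elongases, Elovl6, which extends 16-carbon chains, read 105, 102 and 112 CPM in sham and 60.7, 87.5, 77.0 and 53.9 CPM in injured control cord, with no overlap (log2 fold change -0.61 ± 0.14, adjusted p = 0.00200). Elovl5 (-0.23 ± 0.09, adjusted p = 0.0558) and Elovl1 (0.21 ± 0.12, adjusted p = 0.152), elongases of polyunsaturated and of very long saturated chains, were not called. Of the desaturases, Scd1 read 955, 872 and 834 CPM in sham and 501, 705, 683 and 556 CPM in injured control cord (log2 fold change -0.54 ± 0.15, adjusted p = 0.00949). Its groups did not overlap, and the same held for Scd2, at 4120, 3710 and 3990 CPM in sham and 2810, 3360, 3390 and 1910 CPM in injured control cord (-0.46 ± 0.15, adjusted p = 0.0171). The call of Scd2 was lost without injured control replicate 4 or without sham replicate 1 or 3. Fads1 had a log2 fold change of -0.36 ± 0.14 (adjusted p = 0.0389), lost without any of the shams and without injured control replicate 1 or 4, and the delta-6 desaturase Fads2 was not called (-0.05 ± 0.19, adjusted p = 0.864).

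Both injured control libraries high in Xist, replicates 1 and 4, lay below both others in 11 of the 18 sterol genes and 10 of the 12 fatty acid genes, as in 26.7% of all genes tested. They also held more of the phagocyte markers. The summed level of the 8 phagocyte markers was 3748 and 4369 CPM in replicates 1 and 4, and 1968 and 2326 CPM in replicates 2 and 3. The part of these in the low levels was not tested. Without both libraries 15 of the 30 genes were called in place of 24, of which 12 were sterol genes called lower, and the median log2 fold change was -0.47 over all 30. With the libraries low in Xist alone, which leave sham replicates 1 and 2 and injured control replicates 2 and 3, 10 were called. Of these, 9 were sterol genes called lower. The share of all genes called was not counted in these smaller fits. A loss of calls from having fewer libraries therefore cannot be told apart.

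Markers of the cells in the cord moved in these comparisons too. The summed level of 12 oligodendrocyte markers, among them the myelin gene Mog, was 14138 ± 806 CPM in sham cord at 35 days (range 13440 to 15020) and 11763 ± 785 CPM in injured control cord (range 10783 to 12488). Of the 12, 3 were lower, with a median log2 fold change of -0.24. The 8 phagocyte markers all rose, from a mean sum of 233 CPM in sham to 1968 to 4369 CPM in injured control cord, and 5 of 8 neuron markers fell, with sums of 11446 to 11778 and 4113 to 8364 CPM. Of 8 astrocyte markers, 3 rose and none fell. Schwann cell markers summed to 7.96 to 27.1 CPM in sham and 12.9 to 705 CPM in injured control cord, and fibroblast markers to 130.4 to 148 CPM and 245 to 2226 CPM. Of 6 markers each, 4 Schwann cell and 5 fibroblast markers rose, and of 6 skeletal muscle markers none was called. The 8 adipocyte markers summed to 7.12 to 13.0 CPM in sham and 7.56 to 16.0 CPM in injured control cord at 35 days, and to 4.19 to 78.4 CPM over all libraries. The part of the other cell types in the results was not tested.

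Since the sterol genes were lower together, the bases just upstream of the start sites are shown for some of those called. These are the called sterol genes whose printed bases lie outside the gene's own GENCODE span. Ebp, which was not called at 35 days, and Fasn, of the fatty acid branch, are added. Such bases of Pmvk, Elovl1, Acly and Srebf1 are not shown. RefSeq promoter windows of GRCm38.p6 were matched for 23 of the 30 genes, as 29 windows. Capitals mark CCAAT or its reverse complement ATTGG, the box bound by NF-Y, a factor known to act with SREBPs, and CACNCCAC, searched on both strands as a form of the sterol element. In Fasn a CCAAT and an ATTGG share bases. Every stretch shown holds a marked match. The bases left out for Acly and Srebf1 hold none, and the windows of Elovl6, Fads2 and Acaca have no match.
Hmgcs1, chr13:119690201-119690350, plus strand: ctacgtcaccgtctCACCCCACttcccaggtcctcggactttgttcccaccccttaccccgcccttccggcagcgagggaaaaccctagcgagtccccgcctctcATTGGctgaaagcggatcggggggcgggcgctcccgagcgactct
Mvk, chr5:114444119-114444268, plus strand: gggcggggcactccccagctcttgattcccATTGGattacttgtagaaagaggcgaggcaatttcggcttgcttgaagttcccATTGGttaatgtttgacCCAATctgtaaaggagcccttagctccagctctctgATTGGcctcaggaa
Mvd, chr8:122443423-122443572, minus strand: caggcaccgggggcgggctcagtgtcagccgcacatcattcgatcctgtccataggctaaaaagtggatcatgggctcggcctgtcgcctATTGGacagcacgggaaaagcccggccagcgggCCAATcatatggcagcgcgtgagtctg
Nsdhl, chrX:72918371-72918520, plus strand: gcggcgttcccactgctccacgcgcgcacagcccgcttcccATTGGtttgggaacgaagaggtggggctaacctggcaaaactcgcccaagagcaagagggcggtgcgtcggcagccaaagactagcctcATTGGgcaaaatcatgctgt
Sc5d, chr9:42264301-42264450, minus strand: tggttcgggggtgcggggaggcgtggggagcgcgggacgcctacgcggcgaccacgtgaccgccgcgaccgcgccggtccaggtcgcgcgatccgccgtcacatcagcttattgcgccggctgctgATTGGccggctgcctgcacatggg
Ebp, chrX:8193513-8193662, minus strand: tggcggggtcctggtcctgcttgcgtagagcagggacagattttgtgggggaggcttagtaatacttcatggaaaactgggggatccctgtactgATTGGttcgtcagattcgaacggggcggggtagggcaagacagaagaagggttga
Fasn, chr11:120824548-120824697, minus strand: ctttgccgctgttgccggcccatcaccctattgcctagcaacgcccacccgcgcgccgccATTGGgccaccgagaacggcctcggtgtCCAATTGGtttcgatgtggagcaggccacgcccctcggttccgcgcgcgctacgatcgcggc
CCAAT on either strand was in the windows of 20 of the 23 genes, all 14 sterol genes and 6 of 9 fatty acid genes. Of all 27025 genes with a window, 41.1% had it. The windows searched reach beyond the letters shown, as with the CCAAT at base 38 after the start in Acly. It was in 72.4% of the 29 windows and in 37.4% of all 32851 promoter windows of the same length. CACNCCAC was in 6.9% of the windows of the 30 genes, those of Hmgcs1 and Insig1, and in 6.24% of all windows. The CCAAT box was also in a window each of Ebp and Pmvk, the sterol genes whose levels were not called different at 35 days. A match describes the letters of the window and shows no binding.

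At 3 days injured control cord already had lower sterol genes than sham. Of the 18, 10 were called lower and none higher, and of the 12 fatty acid genes 4 were called lower and 2 higher, by the edgeR test. Over all genes tested 16% were called lower and 19.5% higher. The median log2 fold change was -0.53 in the sterol branch and -0.18 in the fatty acid branch, beside 0.01 for all genes. The injured control libraries all lay below the shams in 22 of the 30 genes, as in 27.6% of all genes tested.

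Insig1 had the largest change at 3 days. It read 235, 180 and 179 CPM in sham and 74.8, 133 and 82.6 CPM in injured control cord, with replicate 2 the highest of the injured (log2 fold change -1.03 ± 0.24, adjusted p = 0.00182). Fdft1 read 168, 155 and 140 CPM in sham and 108, 121 and 92.9 CPM in injured control cord. The groups did not overlap, and the level was 0.697 times that of sham (-0.52 ± 0.09, adjusted p = 0.000165). Dhcr7, which makes cholesterol in the last step from 7-dehydrocholesterol, read 90.6, 65.2 and 63.8 CPM in sham and 47.4, 54.7 and 41.1 CPM in injured control cord, with no overlap though sham replicate 1 stood apart (-0.62 ± 0.16, adjusted p = 0.00417). Hmgcs1, Mvd, Fdps, Cyp51, Nsdhl, Sc5d and Srebf2 were the other sterol genes called lower, with log2 fold changes from -0.45 for Cyp51 to -0.73 for Hmgcs1. Ebp had a positive estimate, 0.29 ± 0.14 (adjusted p = 0.105), with every injured library above every sham.

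In the fatty acid branch at 3 days Acss2 read 146, 125 and 142 CPM in sham and 70.2, 99.4 and 68.7 CPM in injured control cord, with no overlap (log2 fold change -0.79 ± 0.17, adjusted p = 0.000843). Elovl6 read 137, 136 and 122 CPM in sham and 69.8, 89.7 and 85.4 CPM in injured control cord, also apart (-0.69 ± 0.15, adjusted p = 0.00121). Elovl1 was higher after injury, at 50.6, 51.8 and 58.9 CPM in sham and 83.4, 77.6 and 74.9 CPM in injured control cord. All its injured libraries lay above all its shams (0.55 ± 0.12, adjusted p = 0.00125). Acly (-0.74 ± 0.20, adjusted p = 0.00501) and Fads1 (-0.43 ± 0.15, adjusted p = 0.0238) were lower and Srebf1 was higher (0.38 ± 0.12, adjusted p = 0.0125).

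Scd1 and Scd2 were not called at 3 days, with log2 fold changes of -0.15 ± 0.17 (adjusted p = 0.503) and -0.20 ± 0.16 (adjusted p = 0.334). The count of 16 called at 3 days fell to 8 without injured control replicate 1, to 9 without sham replicate 1 and to 10 without injured control replicate 3. With the libraries low in Xist alone, which leave 1 sham, it was 2. At 3 days the summed oligodendrocyte markers were 13436 to 15813 CPM in sham and 10212 to 17769 CPM in injured control cord, and 1 of 12 was lower and 1 higher. The summed phagocyte markers were 225 to 270 CPM and 4270 to 7312 CPM, with all 8 higher, and 7 of 8 neuron markers were lower. All 6 fibroblast markers were higher, as were 5 of 6 skeletal muscle markers, 3 of 8 astrocyte markers, 1 of 6 Schwann cell markers and 1 of the 6 adipocyte markers tested. The skeletal muscle sum reached 257 CPM in injured control replicate 3, against a sham mean of 3.08 ± 0.532 CPM (SD, n = 3). The part of these in the results was not tested.

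The change of the injury effect between 3 and 35 days was tested as an interaction (edgeR). It was called in none of the 30 genes, beside 0.362% of all genes called. Of the 30, 6 had an unadjusted p under 0.05, and the share of all genes under it was not counted. The smallest p was that of Ebp, with a difference of log2 fold changes of -0.52 ± 0.19 (adjusted p = 0.297). The difference was 0.36 ± 0.16 for Srebf1 (adjusted p = 0.462) and -0.62 ± 0.23 for Cyp51 (adjusted p = 0.325). Differences were below 0 in 17 of the 18 sterol genes (median -0.38) and 8 of the 12 fatty acid genes (-0.13), beside 0.05 for all genes. In sham cord, 35 against 3 days gave no call in the 30 genes either, beside 0.00613% of all genes called. An unadjusted p under 0.05 was found in 4 of the 30, again with no share of all genes counted. Of the 30 estimates in sham cord 27 were below 0, with a median of -0.15. In 11 genes every 35-day sham lay below every 3-day sham, as in 12.4% of all genes tested.

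Between 3 and 14 days in injured control cord 3 of the 30 genes fell, beside 2.42% of all genes tested. Ebp read 33.8, 26.1 and 30.1 CPM at 3 days and 18.0, 18.9 and 19.5 CPM at 14 days. Its times did not overlap, and the level at 14 days was 0.627 times that at 3 days (edgeR, log2 fold change -0.67 ± 0.14, adjusted p = 0.00794). Elovl1 read 83.4, 77.6 and 74.9 CPM at 3 days and 46.6, 54.8 and 50.0 CPM at 14 days, close to the 3-day shams (-0.64 ± 0.12, adjusted p = 0.00465). Sqle read 117, 154 and 105 CPM and then 69.6, 90.9 and 72.1 CPM, again without overlap (-0.70 ± 0.20, adjusted p = 0.0496), a call lost without any 1 of the 6 libraries, which leaves 2.

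Markers moved between 3 and 14 days as well. Of 12 oligodendrocyte markers 3 were lower, with a median log2 fold change of -0.39, and their sum went from 10212 to 17769 CPM at 3 days to 9321 to 11215 CPM at 14 days. Of 8 phagocyte markers 2 were lower and 1 higher, 1 of 8 astrocyte markers was lower, and 1 of the 6 adipocyte markers tested was higher. No neuron, Schwann cell, fibroblast or skeletal muscle marker was called (edgeR), with 1, 0, 2 and 0 unadjusted p-values under 0.05. The part of these in the falls was not tested.

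Between 14 and 35 days none of the 30 genes was called in injured control cord, beside 1.32% of all genes called. An unadjusted p under 0.05 was found in 5 of the 30 (edgeR), and the share of all genes under it was not counted. Srebf1 came closest, at 156, 148 and 156 CPM at 14 days and 212, 180, 217 and 205 CPM at 35 days, with no overlap (log2 fold change 0.41 ± 0.11, adjusted p = 0.0538). All 6 adipocyte markers tested had estimates below 0 (edgeR, median -4.54, 6 with an unadjusted p under 0.05), as had all 6 fibroblast markers (-1.14, 4 under 0.05). Of 12 oligodendrocyte markers 10 lay above 0 (0.25, 4 under 0.05), and all 8 phagocyte markers did (0.37, 1 under 0.05). No cell type marker was called, and the part of the markers in the estimates was not tested. Without replicate 2 of the 35-day group 5 of the 30 genes were called, and without replicate 3, 2 were. The share of all genes called in these fits was not counted.

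**Figure D3:**
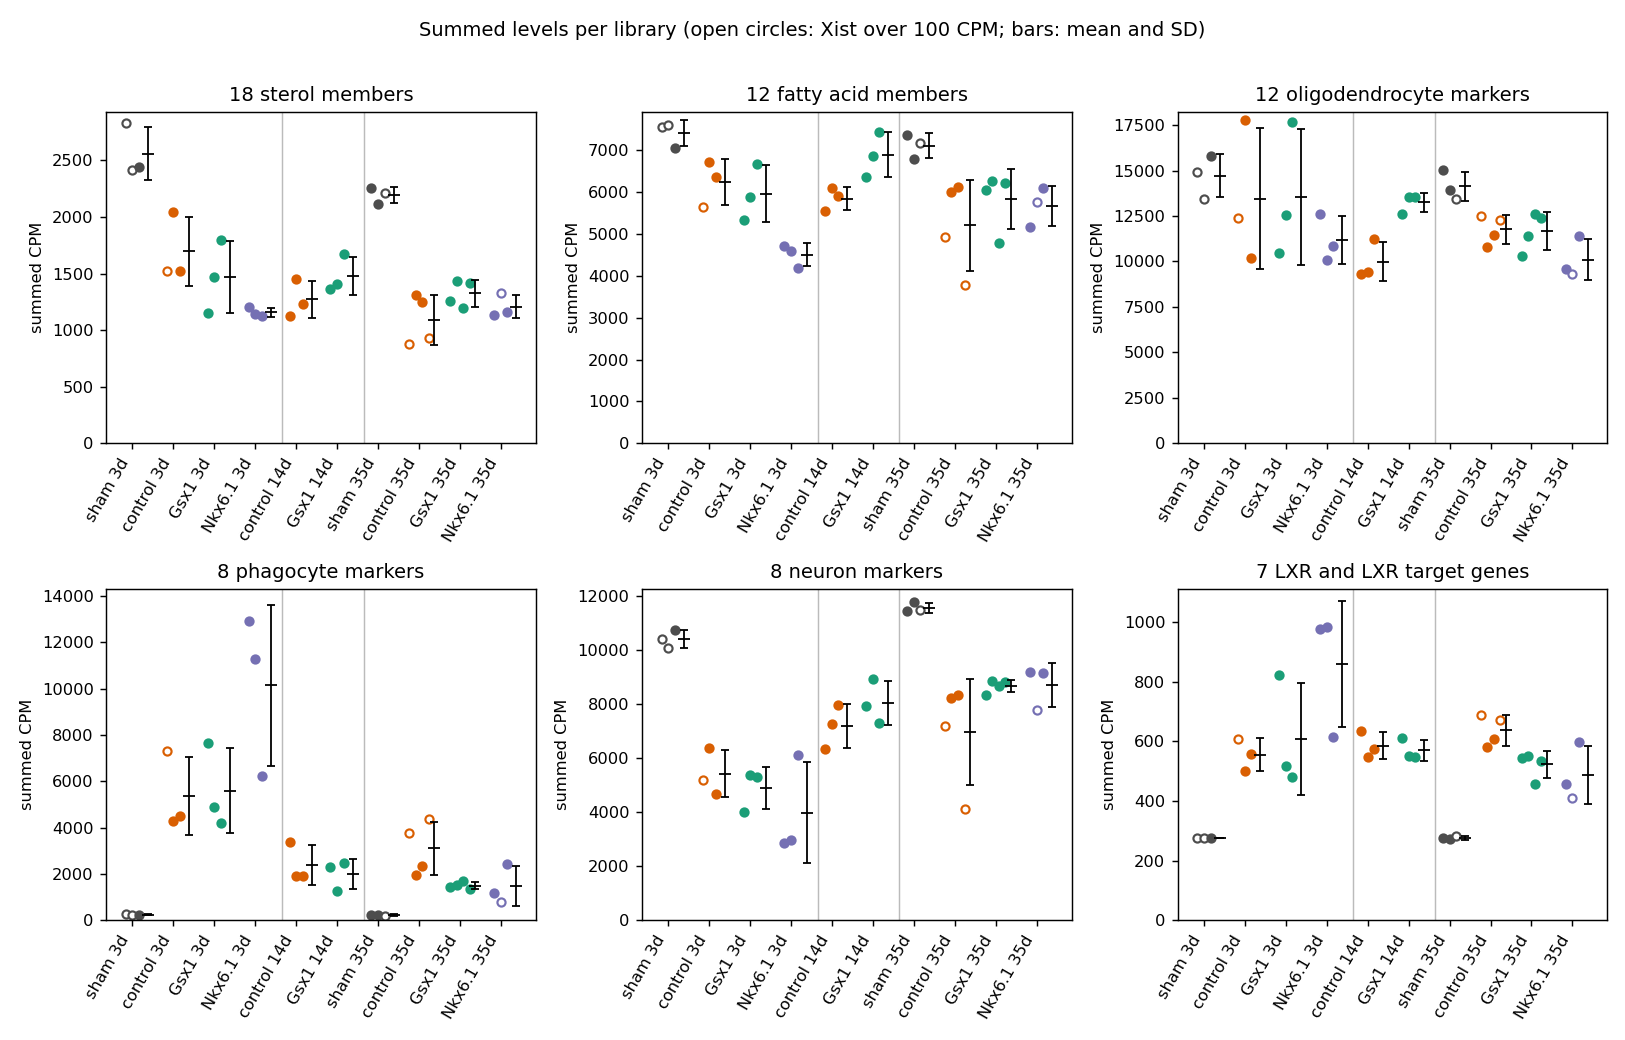
The panels plot, for each library, the summed CPM of the sterol genes, the fatty acid genes, 3 cell type marker lists and the liver X receptor list, with bars for the group mean and SD and open circles for libraries above 100 CPM of Xist. The sterol sum is 2193 ± 73.4 CPM in sham and 1092 ± 221 CPM in injured control cord at 35 days.

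At 3 days 28 of the 30 genes had an estimate below 0 in cords labelled Nkx6.1 against injured controls. Only Cyp51 and Scd1 of the 30 were called (edgeR), both lower, beside 0.19% of all genes called lower. Of the 30, 19 had an unadjusted p under 0.05, and the share of all genes under it was not counted. The median log2 fold change over the 30 was -0.48, beside 0.00 for all genes tested, and in 22 of the 30 every Nkx6.1 library lay below every injured control, as in 8.59% of all genes tested.

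Cyp51 read 99.3, 95.8 and 92.3 CPM in Nkx6.1 cord and 136, 207 and 141 CPM in injured control cord. The Nkx6.1 libraries lay close together and below all controls (log2 fold change -0.75 ± 0.17, adjusted p = 0.0488). Scd1 read 499, 492 and 460 CPM against 644, 932 and 865 CPM, with the same separation (-0.75 ± 0.17, adjusted p = 0.0484). Elovl6 was at 54.8, 54.4 and 50.2 CPM against 69.8, 89.7 and 85.4 CPM, and missed the threshold (-0.62 ± 0.15, adjusted p = 0.0621).

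Both calls at 3 days were lost without injured control replicate 2 or 3 and without Nkx6.1 replicate 1 or 2, each of which leaves no gene called. Without Nkx6.1 replicate 3 there were 8 calls, and without injured control replicate 1 there were 5. The share of all genes called in these fits was not counted. The summed phagocyte markers were 6231 to 12910 CPM in Nkx6.1 cord and 4270 to 7312 CPM in injured control cord, and the summed astrocyte markers 3597 to 4501 and 4839 to 6492 CPM. The Schwann cell sums were 11.1 to 69.8 and 116 to 959 CPM, without overlap, and the neuron sums 2867 to 6136 and 4696 to 6398 CPM. No cell type marker was called (edgeR), while 6 of 8 phagocyte, 4 of 8 astrocyte, 3 of 12 oligodendrocyte, 2 of 8 neuron and 6 of 6 Schwann cell markers had an unadjusted p under 0.05. Their median log2 fold changes were 1.08, -0.32, -0.15, -0.40 and -3.01. Of the adipocyte and fibroblast markers 1 each had an unadjusted p under 0.05, and of the skeletal muscle markers none. The part of these in the low levels was not tested.

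At 35 days Nkx6.1 and injured control cord gave no call in the 30 genes by the edgeR test, beside 0% of all genes, and 1 had an unadjusted p under 0.05. The median was 0.13, and -0.11 without both injured controls high in Xist. The gene under 0.05 was Elovl1, at 36.3, 38.4 and 42.5 CPM in Nkx6.1 cord and 45.9, 39.0, 46.4 and 58.8 CPM in injured control cord (log2 fold change -0.28 ± 0.12, adjusted p = 0.365). Its libraries overlapped between the groups. All 8 phagocyte markers had estimates below 0 (edgeR, median -0.95, 7 with an unadjusted p under 0.05). So had all 12 oligodendrocyte markers (-0.18, 1 under 0.05) and all 6 fibroblast markers (-0.97, 1 under 0.05). All 8 neuron markers lay above 0 (0.33, 1 under 0.05). None of these markers was called, and their part in the estimates was not tested.

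No gene of the 30 was called between Gsx1 and injured control cord at 3, 14 or 35 days, and at each time 0% of all genes tested were called. At 3 days none of the 30 had an unadjusted p under 0.05, although all 18 sterol genes had an estimate below 0, with a median of -0.16. All 6 skeletal muscle (edgeR, median -4.54, 5 with an unadjusted p under 0.05), Schwann cell (-2.38, 3 under 0.05) and fibroblast markers (-1.47, 3 under 0.05) were below 0 too. Of 8 phagocyte markers 7 lay above 0 (0.36, 0 under 0.05). At 14 days the median over the 30 was 0.19 and 1 gene had an unadjusted p under 0.05. That gene was Srebf1, at 222, 188 and 175 CPM in Gsx1 and 156, 148 and 156 CPM in injured control cord. The libraries did not overlap (log2 fold change 0.35 ± 0.12, adjusted p = 0.492). The summed oligodendrocyte markers were 12637 to 13569 CPM in Gsx1 and 9321 to 11215 CPM in injured control cord at 14 days, and the summed fibroblast markers 484 to 960.3 and 2699 to 3330 CPM. All 6 Schwann cell markers (edgeR, median -1.86, 2 with an unadjusted p under 0.05) and all 6 adipocyte markers tested (-1.66, 1 under 0.05) had estimates below 0 at 14 days. No marker was called at 3 or 14 days, and the part of the markers in these estimates was not tested.

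At 35 days the median log2 fold change of Gsx1 against injured control was 0.21, beside -0.03 for all genes tested. Of the 30 estimates 25 were above 0. An unadjusted p under 0.05 was found in 5 of the 30 (edgeR), and the share of all genes under it was not counted. Insig1 read 116, 126, 97.2 and 130 CPM in Gsx1 cord, between sham and the lower pair of injured controls and beside the higher pair (0.44 ± 0.21, adjusted p = 0.251). Lss (0.50 ± 0.22, adjusted p = 0.235) and Acly (0.38 ± 0.17, adjusted p = 0.240) had estimates of like size. All 8 phagocyte markers had estimates below 0 (edgeR, median -1.04, 7 with an unadjusted p under 0.05). So had all 6 fibroblast markers (-1.38, 4 under 0.05). All 8 neuron markers lay above 0 (0.26, 2 under 0.05), and 8 of 12 oligodendrocyte markers below it (-0.02, 0 under 0.05). None of these markers was called, and their part in these estimates was not tested. The injured controls include 2 libraries high in Xist and the Gsx1 group none. Without those 2 the median over the 30 genes was 0.01, and the estimates of Acly and Acss2 were -0.02 and -0.01. Without injured control replicate 2, which is low in Xist, 2 genes were called higher in Gsx1 cord, among them Sc5d (0.59 ± 0.19, adjusted p = 0.0450). That fit keeps both injured controls high in Xist. The share of all genes called in it was not counted.

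Gsx1 replicate 3 was itself the lowest of its group in 9 of the 18 sterol and 10 of the 12 fatty acid genes, as in 35.8% of all genes tested. The interaction of Gsx1 with time, 35 against 3 days, was called in none of the 30, beside 0% of all genes called. Of the 30, 9 had an unadjusted p under 0.05 (edgeR), and the share of all genes under it was not counted. Gsx1 and Nkx6.1 cord at 35 days likewise gave no call in the 30 genes, beside 0% of all genes, with 1 unadjusted p under 0.05, that of Ebp (log2 fold change 0.34 ± 0.13, Gsx1 over Nkx6.1, adjusted p = 1).

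Set against sham cord at 35 days, the cords labelled Gsx1 and Nkx6.1 had lower sterol genes as well. These comparisons share the sham libraries with the injury comparison. In Gsx1 cord 12 sterol genes and 1 fatty acid gene were lower and Srebf1 was higher (edgeR), beside 1.17% of all genes called lower and 8.63% higher. The 13 lower genes stand among 191 called lower in all. In Nkx6.1 cord 12 sterol genes and 3 fatty acid genes were lower and Srebf1 was higher, beside 0.821% lower and 6.37% higher, and 134 genes were called lower in all. The sterol medians were -0.64 in Gsx1 and -0.81 in Nkx6.1 cord, and the fatty acid medians -0.27 and -0.39.

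Fdft1 read 101, 100, 106 and 96.8 CPM in Gsx1 cord and 98.0, 99.4 and 102 CPM in Nkx6.1 cord, all below the shams at 144 to 160 CPM. The log2 fold change was -0.58 ± 0.09 (adjusted p = 7.03e-05) in Gsx1 and -0.60 ± 0.09 (adjusted p = 0.000154) in Nkx6.1 cord. Fdps read 39.2, 47.6, 58.9 and 52.8 CPM in Gsx1 cord and 51.5, 46.1 and 42.6 CPM in Nkx6.1 cord. These too lay below every sham (-0.95 ± 0.17, adjusted p = 0.000367, and -1.03 ± 0.18, adjusted p = 0.000424). Cyp51 read 99.6, 121, 101 and 118 CPM and 97.7, 108 and 98.8 CPM (-0.83 ± 0.16, adjusted p = 0.000874, and -0.95 ± 0.17, adjusted p = 0.000635).

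Hmgcs1 fell by 0.92 ± 0.21 on the log2 scale in Gsx1 cord (adjusted p = 0.00488) and by 1.14 ± 0.23 in Nkx6.1 cord (adjusted p = 0.00168). Srebf1 read 196, 183, 182 and 186 CPM in Gsx1 cord and 186, 170 and 229 CPM in Nkx6.1 cord, all above the shams at 117 to 127 CPM. Its log2 fold change was 0.61 ± 0.11 (adjusted p = 0.000463) and 0.67 ± 0.12 (adjusted p = 0.000372). Acss2 was lower in both (-0.51 ± 0.16, adjusted p = 0.0366, and -0.57 ± 0.17, adjusted p = 0.0358).

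Elovl6 (-0.52 ± 0.15, adjusted p = 0.0336) and Elovl5 (-0.35 ± 0.10, adjusted p = 0.0318) were called lower in Nkx6.1 cord. Elovl5 read 145, 154 and 165 CPM there and 201, 185 and 205 CPM in sham, with no overlap. The desaturases Scd1 and Scd2 were called in neither comparison. The count of 14 called in Gsx1 cord fell to 8 without sham replicate 1 or sham replicate 3. The count of 16 in Nkx6.1 cord fell to 8 without its replicate 3, to 9 without its replicate 1 and to 10 without sham replicate 1 or 3.

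Markers moved in both comparisons with sham. All 8 phagocyte markers were higher in Gsx1 cord and 7 of 8 in Nkx6.1 cord. All 12 oligodendrocyte markers had estimates below 0 in both, with medians of -0.24 and -0.41. None of these was called lower in Gsx1 cord (edgeR, 3 with an unadjusted p under 0.05) and 2 were in Nkx6.1 cord (9 under 0.05). Of 6 fibroblast markers 2 and 4 were higher, of 6 Schwann cell markers 2 and 1, and of 8 astrocyte markers 2 and 2. No neuron marker was called (1 unadjusted p under 0.05 in each comparison), and all 8 had estimates below 0. The part of these in the results was not tested.

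**Figure D4:**
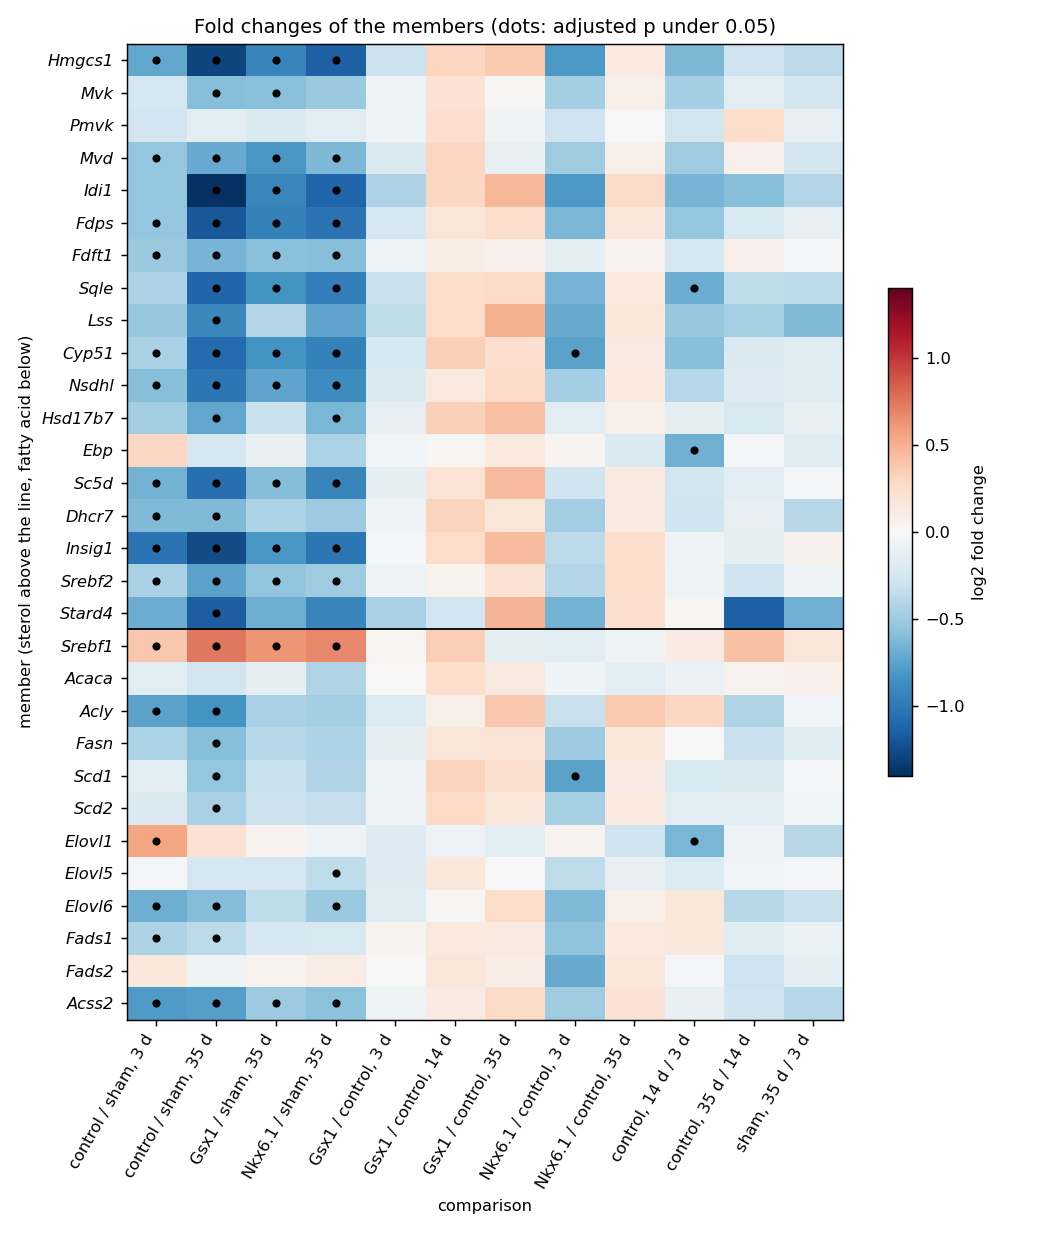
Each cell gives the log2 fold change of 1 gene in 1 of 12 comparisons on a colour scale, blue for lower and red for higher, with a dot for an adjusted p under 0.05. The dots of the sterol genes stand mainly in the columns set against sham, and Srebf1 is red with a dot in all 4 of those.

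Other genes of the same pathways, outside the 30, were read from lists. Of 12 further sterol pathway genes, 8 were lower and none higher in injured control cord at 3 days, and 9 were lower and none higher at 35 days, beside 16% and 15.5% of all genes called lower. Msmo1, the C4-methylsterol oxidase listed in the table under an older symbol, was at 139.8 ± 8.05 CPM in sham and 66.5 ± 14.4 CPM in injured control cord at 35 days (edgeR, log2 fold change -1.07 ± 0.15, adjusted p = 7.32e-06). Acat2, which makes acetoacetyl-CoA, had a log2 fold change of -0.83 ± 0.14 (adjusted p = 7.68e-05). At 3 days Acat2 (-0.70 ± 0.15, adjusted p = 0.000983), Insig2, a homologue of Insig1 (-0.46 ± 0.11, adjusted p = 0.00213), and Msmo1 (-0.64 ± 0.16, adjusted p = 0.00343) had the smallest p.

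Of 25 further fatty acid genes, 7 were lower and 7 higher at 3 days, and 9 were lower and none higher at 35 days. Over all genes tested 16% were lower and 19.5% higher at 3 days, and 15.5% and 21.3% at 35 days. At 3 days the acyl-CoA synthetase Acsl5 was higher (0.56 ± 0.11, adjusted p = 0.000686) and its homologue Acsl3 lower (-0.70 ± 0.16, adjusted p = 0.00155). Hsd17b12, a reductase of the elongation cycle, was lower at 35 days (-0.39 ± 0.08, adjusted p = 0.000605). Fa2h, which hydroxylates fatty acids for myelin lipids, was lower at 35 days (-0.72 ± 0.17, adjusted p = 0.00285).

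Liver X receptors, which sense oxysterols, induce cholesterol efflux genes and Srebf1. Of 7 genes of that list, 5 were higher in injured control cord at 3 days and 6 at 35 days, and none was lower, beside 19.5% and 21.3% of all genes called higher. Abca1, a cholesterol exporter, was at 54.0 ± 3.58 CPM in sham and 309 ± 13.4 CPM in injured control cord at 35 days (log2 fold change 2.52 ± 0.26, adjusted p = 1.91e-07). Mylip, which directs the breakdown of the LDL receptor, was at 8.30 ± 0.725 and 41.5 ± 11.9 CPM (2.32 ± 0.27, adjusted p = 5.32e-07). Abcg1, of the same list, was not called at 3 days (0.15 ± 0.13, adjusted p = 0.39) and was higher at 35 days (0.44 ± 0.12, adjusted p = 0.00732). Nr1h2, also listed, was called at neither time. The part of these receptors or of the phagocytes in the level of Srebf1 was not tested.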

How the data were processed

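Bulk RNA-seq of mouse spinal cord was deposited by the authors as 1 table of raw read counts per gene, with 32 libraries in 10 groups. The submitters' processing notes name HISAT2, SAMtools, HTSeq and DESeq2 and the builds mm10 and GRCm38, with no versions or settings. Strand use in counting is not given in the sources used here, so reads of overlapping genes cannot be told apart. Genes were filtered with edgeR 4.0.16 in R 4.3.3 (minimum count 10, minimum total 15), which left 16314 of 23420, and scaled by TMM. One quasi-likelihood model of the 10 groups (22 residual degrees of freedom) gave 15 contrasts, with Benjamini-Hochberg adjustment over all genes tested and a threshold of 0.05. Shares of all genes called are by adjusted p. The share with an unadjusted p under 0.05 was not counted in any comparison. CPM used effective library sizes, and the SE is the log2 fold change over the root of F. The fit was tested on counts simulated with the same dispersion for every gene, which these data do not have. That run therefore does not test the calls given here. No pair of libraries of the same group agreed within sampling noise (36 pairs).

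Genes are named with every library's value by this rule: the 4 of each branch with the smallest p for injury at 35 days, Srebf1, Srebf2, Insig1, Scd1 and Scd2, and up to 3 called genes per branch in each other comparison. Genes outside it are given as further values, chosen after their values were seen. The members and lists were chosen with earlier results of these data known. Alternatives were DESeq2 1.42.0 size factors and its Wald test, no filter, a replicate block, only the compared groups, leaving out each library, and leaving out libraries by Xist and Ddx3y. Leaving out the 35-day injured controls high in Xist was added after seeing the data. Exon lengths came from GENCODE and promoters from RefSeq.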

Additional observations from a re-analysis of the deposited data

Results flagged for a closer look

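In the groups of 4 libraries, 60 pairs of gene and group were examined for a library far from the other 3, and 4 were past Dixon's value of 0.829. Chance flags about 1 in 20 such groups. Fdft1 was 102.0 CPM in injured control replicate 3 at 35 days, above the others at 93.8 to 95.1 CPM. The other 3 were in Gsx1 replicate 3 at 35 days, each below the rest of its group. Lss was 23.1 CPM there against 33.8 to 35.6 CPM, Fasn 278 CPM against 461 to 478 CPM, and Fads2 88.1 CPM against 128 to 135 CPM. Why that library is low was not tested.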

How the results depend on the processing

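Single genes were followed over the alternatives as 81 results, a wider set than the naming rule gives. It holds every gene of the 30 called in a comparison. For Gsx1 against injured control cord at 35 days it holds the 3 genes of each branch with the smallest p. Of the values from the alternatives, 930 kept their direction and side of the threshold, 198 lost the call, 1 gained it and 4 reversed. The reversed ones were Acly and Acss2 in Gsx1 against injured control cord at 35 days, at -0.0200 and -0.00688 with the libraries low in Xist alone and at -0.0234 and -0.0102 without both injured controls high in Xist. At 35 days the injury calls of Hmgcs1, Mvd, Idi1, Fdps, Fdft1, Sqle, Cyp51, Nsdhl, Insig1 and Srebf1 held under every alternative run. The count of genes called for injury at 35 days went from 24 to 10 with the libraries low in Xist, to 15 with only the compared groups and to 15 without both injured controls high in Xist. At 3 days it went from 16 to 9 without the libraries of mixed sex markers and to 2 with those low in Xist. For Nkx6.1 at 3 days it went from 2 to 0 with DESeq2 size factors, with no filter or with only the compared groups, to 4 without the mixed libraries, to 9 with those low in Xist and to 8 by DESeq2's Wald test. It went from 16 to 10 with no filter for Nkx6.1 against sham. It went from 0 to 8 for sham between times with only the compared groups, and from 0 to 2 for injured control between 14 and 35 days by the Wald test. The cause was not tested. Leaving out 1 library gave 8 to 19 calls for injury at 3 days and 20 to 25 at 35 days, 0 to 2 for Gsx1 at 35 days, 0 to 8 for Nkx6.1 at 3 days, 8 to 13 for Gsx1 and 8 to 14 for Nkx6.1 against sham, 2 for injured control between 3 and 14 days, and 0 to 5 between 14 and 35 days. Deviations of same-numbered libraries from their group means had correlations from -0.60 to 0.44. With 3 or 4 such pairs in a comparison, and no differently numbered pairs beside them, this cannot decide whether the numbers pair libraries. The replicate block gave 17 calls for injury at 3 days, 23 at 35 days, 3 for Nkx6.1 at 3 days, 12 and 15 for Gsx1 and Nkx6.1 against sham, and 4 for injured control between 3 and 14 days. The share of all genes called is not given here for any of the alternative fits. A change in a count therefore cannot be told apart from a change over all genes.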
